A study of Homo sapiens with 12 samples.

Results

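The cluster of matrix metalloproteinase (MMP) genes on the long arm of chromosome 11, at 11q22, was followed in EW8 and TC71 cells with and without induced AP-1. Its members were listed by symbol, with no threshold on expression, and all 9 of the genes listed were found among the 58721 genes of the count table. EW8 and TC71 are human Ewing sarcoma cell lines, and in this series both carried lentiviral constructs for a Tet-On 3G transactivator, driven by the EF1α promoter, and for c-Jun and c-Fos joined by a self-cleaving peptide under the TRE3G promoter. The 12 libraries fell into 4 groups of 3: EW8 with vehicle (DMSO), EW8 with doxycycline at 2000 ng/ml, TC71 with vehicle and TC71 with doxycycline, all harvested at 72 h. The labels give the vehicle groups as WT and the doxycycline groups as AP1_overexpression, although by the treatment protocol the constructs were in the cells of both. No library had doxycycline without the transgenes, so the drug and the transgenes cannot be told apart as the source of a change. Nothing states that the 3 replicates of a group were separate cultures, and the p-values measure the spread between these libraries, which may be technical.

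MMPs are zinc-dependent endopeptidases that are made as inactive zymogens and cleave proteins of the extracellular matrix. The cluster holds the collagenases MMP1, MMP8 and MMP13, the stromelysins MMP3 and MMP10, matrilysin (MMP7), macrophage metalloelastase (MMP12), enamelysin (MMP20) and the less well characterised MMP27. AP-1, a dimer of Jun and Fos family proteins, has long been known as an inducer of several of these genes, among them MMP1 and MMP3, in fibroblasts and carcinoma cells.

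In the GRCh38 build the 9 genes lie on the minus strand of chromosome 11 between 102520508 and 102955734, a span of 435.2 kb. In ascending coordinates they run MMP7 (ENSG00000137673.8, 102520508 to 102530753), MMP20 (ENSG00000137674.3, 102576835 to 102625332), MMP27 (ENSG00000137675.4, 102691487 to 102705806), MMP8 (ENSG00000118113.11, 102711795 to 102727050), MMP10 (ENSG00000166670.9, 102770503 to 102780628), MMP1 (ENSG00000196611.4, 102789920 to 102798160), MMP3 (ENSG00000149968.11, 102835801 to 102843803), MMP12 (ENSG00000262406.2, 102862736 to 102875034) and MMP13 (ENSG00000137745.11, 102942995 to 102955734). A pseudogene on the plus strand, WTAPP1 (ENSG00000255282.6, 102746968 to 102836766), spans MMP10 and MMP1 and reaches into MMP3. The reads were counted over exons without regard to strand, and a read that touched 2 genes was dropped.

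**Figure D1:**
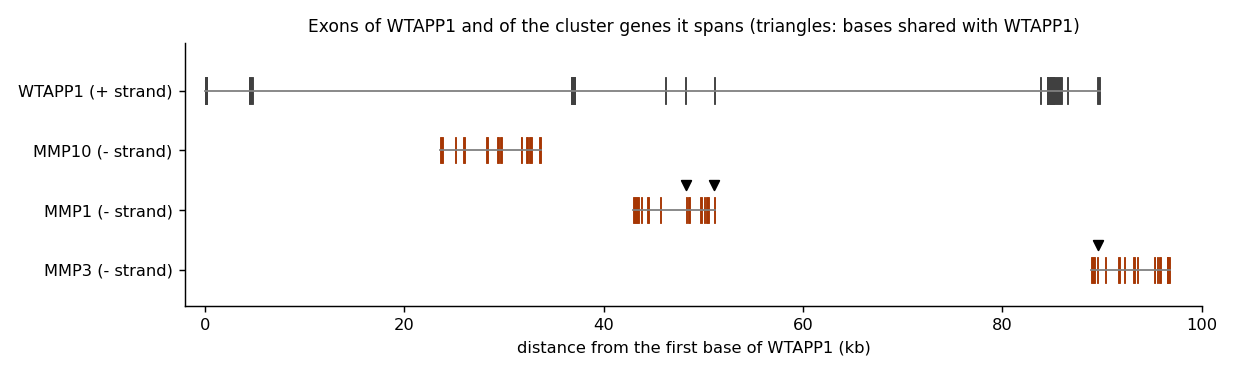
Exons (boxes) of WTAPP1 and of the 3 cluster genes that its span meets, drawn to scale against the distance from the first base of WTAPP1 in kb, with triangles over exonic bases shared with WTAPP1. MMP10 shares no exonic base with WTAPP1, MMP1 shares 150 and MMP3 shares 32.

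The overlap touches the counted bases of MMP1 and MMP3 but not those of MMP10. MMP10 lies within an intron of WTAPP1 and shares 0 of its 1758 exonic bases with another gene of the table. MMP1 shares 150 of 1970 exonic bases with WTAPP1, and 15.3% of the 100-base windows along its exons touch a shared base. MMP3 shares 32 of 2048, with 6.72% of windows touching them. WTAPP1 itself had at most 6 counts in any library, while MMP10, MMP1 and MMP3 reached 38657, 41722 and 1190. Of the remaining members, MMP20 shares 206 of 2551 exonic bases with the antisense gene MMP20-AS1.

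Promoter sequences (250 bases before the start and 50 after it, RefSeq, GRCh38.p14) were at hand for 5 of the 9 members, MMP7, MMP20, MMP27, MMP8 and MMP10. They were searched on both strands for the AP-1 heptamer TGANTCA, first with G or C at N. MMP7 alone held this form, as TGAGTCA, which 4.949% of the 35116 promoters in the RefSeq table hold. MMP1, MMP3, MMP12 and MMP13 had no entry there and were not searched, so most of the genes induced below are not covered. Any relation of the heptamer to induction was not tested. With any base at N, a search chosen after the sequences were seen, MMP10 and MMP20 each held TGAATCA, and the share of all promoters rose to 7.709%. The first base of the heptamer lies 67 bases upstream of the start in MMP10 and in MMP7, and 112 bases upstream in MMP20. The 250 upstream bases of these 3 genes are shown because the counts below set them apart: MMP10 was strongly induced, and MMP7 and MMP20 stayed at or near 0 counts. Capitals mark the heptamer, and each sequence is given 5′ to 3′ on the minus strand, for MMP10 at chr11:102780629-102780878, for MMP7 at chr11:102530748-102530997 and for MMP20 at chr11:102625333-102625582.
MMP10: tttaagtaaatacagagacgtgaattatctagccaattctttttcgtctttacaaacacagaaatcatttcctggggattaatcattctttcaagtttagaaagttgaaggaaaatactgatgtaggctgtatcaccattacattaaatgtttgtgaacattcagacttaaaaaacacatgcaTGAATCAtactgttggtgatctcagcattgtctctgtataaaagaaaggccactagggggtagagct
MMP7: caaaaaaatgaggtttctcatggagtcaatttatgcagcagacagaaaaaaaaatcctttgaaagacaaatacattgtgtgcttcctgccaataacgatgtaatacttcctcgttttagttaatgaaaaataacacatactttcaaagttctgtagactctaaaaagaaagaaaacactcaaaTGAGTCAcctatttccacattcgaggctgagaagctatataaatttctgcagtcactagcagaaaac
MMP20: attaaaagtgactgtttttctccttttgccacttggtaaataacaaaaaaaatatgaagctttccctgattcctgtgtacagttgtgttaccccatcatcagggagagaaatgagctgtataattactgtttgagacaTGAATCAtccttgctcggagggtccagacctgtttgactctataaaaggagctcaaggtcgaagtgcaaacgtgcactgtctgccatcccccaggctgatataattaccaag
The ETS core GGAA or its complement occurs 2 times in the MMP10 promoter, 3 times in that of MMP7, 3 times in that of MMP20, 2 times in that of MMP27 and 5 times in that of MMP8. Some copy of it is in 95.45% of all promoters, and none of the 5 holds 2 or more copies in tandem, an arrangement found in 3.674% of promoters. MMP27 and MMP8 hold no TGANTCA in this window.

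Library totals ranged from 42860665 to 60853649 counts. The mates of a read pair were counted singly, and a level of 6 counts per library (3 read pairs), or 0.0966 to 0.145 CPM (counts scaled to library size with TMM factors), was taken as the floor below which nothing is read from a value. All 11 Ewing sarcoma markers examined, CD99 and NKX2-2 among them, were above the floor in every group. TC71 vehicle replicate 1 stood apart from the other TC71 vehicle libraries (chi-square per gene of 63.9 and 61.7, against 5.40 to 11.03 for the other pairs), and leaving it out changed no call in a cluster gene. The induced genes themselves rose in both lines. JUN went from 21.6 ± 2.61 to 473.7 ± 44.8 CPM in EW8 and from 20.7 ± 4.01 to 755.5 ± 54.6 CPM in TC71, and FOS from 36.8 ± 0.814 to 1078 ± 72.0 and from 11.7 ± 0.426 to 1580 ± 120 CPM (SD, n = 3). Endogenous and transgene-derived transcripts are not separated by these counts.

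With vehicle the cluster was nearly silent, and with doxycycline a contiguous block of 4 genes, MMP10, MMP1, MMP3 and MMP12, was induced in both lines. The counts over all 9 members summed to 32, 34 and 40 in the EW8 vehicle libraries and to 14, 8 and 10 in those of TC71. They reached 5872, 5182 and 4029 with doxycycline in EW8, which is 0.00988% ± 0.000623 of a library (SD, n = 3). In TC71 they reached 78115, 75057 and 82897, or 0.178% ± 0.00688. The block runs over 104.5 kb from the first base of MMP10 to the last of MMP12. It begins 43.5 kb after MMP8 and ends 68.0 kb before MMP13, and both of these neighbours, with MMP7, MMP20 and MMP27, had at most 34 counts in any library.

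**Figure D2:**
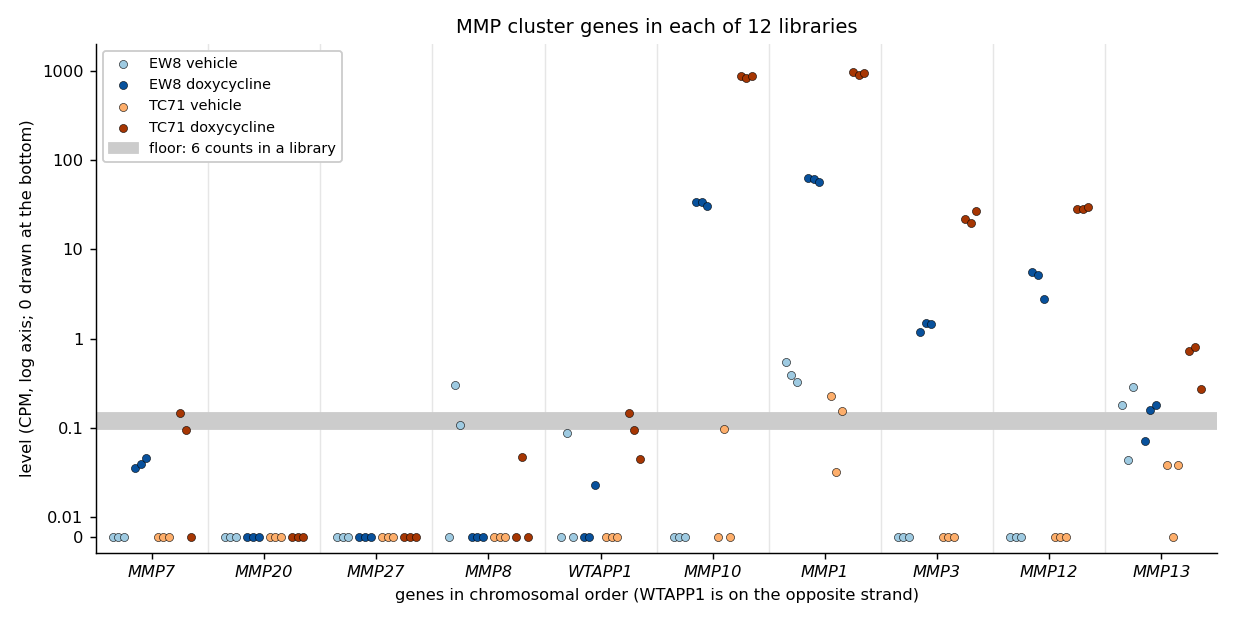
Level of each cluster gene and of WTAPP1 in CPM (log axis, with 0 drawn at the bottom) in each of the 12 libraries, 1 point a library, in chromosomal order; the grey band is the floor of 6 counts. The doxycycline libraries of both lines lie far above the band for MMP10, MMP1, MMP3 and MMP12, those of TC71 highest in each, and every point of MMP20 and MMP27 is at 0.

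Of the 9 members, 5 passed the filter on low counts (MMP10, MMP1, MMP3, MMP12 and MMP13). A member could pass through the group in which it was high. MMP10, MMP3 and MMP12 were at the floor in both vehicle groups and passed only through the doxycycline groups. For these a call as higher was close to fixed in advance. MMP13 passed only with the TC71 doxycycline libraries, and it was not tested when the EW8 groups were fitted alone. Its calls as higher in that TC71 group, over vehicle and over EW8, and for the difference of the responses were favoured in the same way. The shares over the whole table are given beside the counts of calls but do not correct for this. In EW8, 4 of the 5 were called higher with doxycycline and 0 lower (edgeR quasi-likelihood test, Benjamini-Hochberg adjusted p below 0.05 and a log2 change beyond 1), where 11.4% of the 21013 genes tested were called higher and 3.38% lower. In TC71, 5 of 5 were called higher and 0 lower, against 12.3% and 3.67% of all genes. The median log2 fold change over all genes tested was -0.03 in EW8 and 0 in TC71.

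MMP1, interstitial collagenase, which cleaves fibrillar collagens of types I, II and III, was the one member of the induced block with counts above the floor before induction. It had 24, 18 and 18 counts in EW8 with vehicle and 3569, 3097 and 2479 with doxycycline. In TC71 it had 12, 2 and 8 counts with vehicle and 40179, 37857 and 41722 with doxycycline. The groups did not overlap in either line. The level rose from 0.419 ± 0.111 to 60.6 ± 3.68 CPM in EW8 (SD, n = 3), 146-fold, with a log2 fold change of 7.19 (SE 0.15, edgeR adjusted p = 3.9e-17). TC71 went from 0.139 ± 0.0995 to 942.6 ± 35.1 CPM (SD, n = 3), for a log2 change of 12.77 (SE 0.16, edgeR adjusted p = 6.6e-20).

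MMP1 was also the member whose response could be compared best between the lines, since both vehicle groups had counts. The TC71 vehicle mean of 0.139 CPM lay within the range of the floor, however. The values below that use it are therefore uncertain in size. The response in TC71 exceeded that in EW8 by 5.57 on the log2 scale (SE 0.39, edgeR adjusted p = 9.3e-09 for the difference of the responses). It started lower in TC71 than in EW8, by 1.62 on the log2 scale with vehicle (log2 difference -1.62, SE 0.37, edgeR adjusted p = 0.00092), and ended 15.6-fold higher. Without TC71 vehicle replicate 1 the difference of the responses was 6.03. The call for the vehicle difference was lost when only the vehicle groups were fitted (edgeR adjusted p = 0.065). Of the 5 members tested, 2 (MMP1 and MMP13) were called for this difference, both with the larger response in TC71, where 4.18% of all genes were called in that direction and 2.87% in the other.

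MMP10, stromelysin 2, which degrades proteoglycans, laminin and fibronectin and can activate other pro-MMPs, was at the floor in every vehicle library and among the most abundant members with doxycycline. All 3 EW8 vehicle libraries had 0 counts, and those of TC71 had 0, 6 and 0. With doxycycline the counts were 1920, 1737 and 1354 in EW8 and 35822, 35148 and 38657 in TC71. Since the vehicle groups were at the floor, the rise is given as a bound. The mean of 33.2 ± 1.98 CPM in EW8 was at least 269-fold higher than 6 counts in each vehicle library, and the mean of 862.6 ± 20.4 CPM in TC71 at least 7955-fold higher (SD, n = 3; edgeR adjusted p = 2.7e-15 and 4.7e-18). The difference of the responses between the lines cannot be estimated for MMP10, MMP3 or MMP12, because neither line gave a vehicle level.

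MMP3, stromelysin 1, a broad-range protease that cleaves proteoglycans and also activates proMMP1, was induced at a far lower level than MMP10 and MMP1. The member nearest to it is MMP12, which starts 18.9 kb after its end and reached 4.50 CPM in EW8 and 28.9 in TC71. MMP3 had 0 counts in all 6 vehicle libraries. With doxycycline it had 67, 76 and 64 counts in EW8 and 910, 822 and 1190 in TC71. These came to 1.39 ± 0.164 CPM, at least 11.2-fold above the floor, and 22.9 ± 3.79 CPM, at least 211-fold above it (SD, n = 3; edgeR adjusted p = 1.9e-08 and 4.1e-12).

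MMP12, the elastase best known from macrophages, likewise had 0 counts in all 6 vehicle libraries. With doxycycline it had 310, 262 and 122 counts in EW8 and 1168, 1190 and 1316 in TC71. It reached 4.50 ± 1.5 CPM in EW8, at least 36.5-fold above the floor, and 28.9 ± 0.906 CPM in TC71, at least 266-fold above it (SD, n = 3; edgeR adjusted p = 3.7e-09 and 2.4e-11). The EW8 libraries were uneven for this gene: the highest was 1.99 times the lowest, against 1.11 times for MMP10 and 1.13 times for MMP1. Replicate 3 was the low one, with 2.79 CPM of MMP12 against 5.18 and 5.55, and it also had the lowest JUN (422.2 CPM against 495.3 and 503.5) and FOS (998.7 CPM against 1096 and 1139) of the 3. The part of these differences in the MMP12 value was not tested.

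MMP13, collagenase 3, which is normally made by hypertrophic chondrocytes and osteoblasts, was near the limit of detection throughout. It had 8, 2 and 16 counts in EW8 with vehicle and 4, 8 and 8 with doxycycline, and these groups overlapped. The log2 fold change in EW8 was -0.34 (SE 0.82, edgeR adjusted p = 0.78), and its sign turned when vehicle replicate 3 was left out (0.32) or doxycycline replicate 1 (0.03). In TC71 it had 2, 0 and 2 counts with vehicle and 30, 34 and 12 with doxycycline, which did not overlap. The mean of 0.604 ± 0.290 CPM was at least 5.57-fold above the floor (SD, n = 3; edgeR adjusted p = 0.00082). The response differed between the lines by 4.82 on the log2 scale (SE 1.27, edgeR adjusted p = 0.012), a value fitted against a TC71 vehicle group at the floor, and the call was lost without EW8 vehicle replicate 3 (4.11, edgeR adjusted p = 0.059). Of the osteoblast and chondrocyte markers BGLAP, IBSP, SP7, COL10A1 and ACAN, 1 of 5 (ACAN) was tested. In TC71 their summed level was 0.161 to 0.311 CPM with vehicle and 0.0478 to 0.339 with doxycycline, and all 5 were at the floor in the doxycycline libraries in which MMP13 rose. In EW8, where MMP13 was not called, the sum was 0.135 to 0.174 CPM with vehicle and 0.594 to 0.823 with doxycycline, and ACAN, the cartilage proteoglycan aggrecan, rose from 0 counts to 0.497 ± 0.128 CPM, at least 4.03-fold (edgeR adjusted p = 0.00046).

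MMP7, MMP20, MMP27 and MMP8 did not pass the filter. Matrilysin, MMP7, which has no hemopexin domain and is typical of glandular epithelium, had 0 counts in all 6 vehicle libraries, 2 in each EW8 doxycycline library and 6, 4 and 0 in those of TC71. All of these are at or below the floor, and with no filter the edgeR adjusted p was 0.27 in EW8 and 0.15 in TC71. Enamelysin, MMP20, which processes enamel proteins, and MMP27 had 0 counts in all 12 libraries. MMP8, neutrophil collagenase, was the one member seen with vehicle and not with doxycycline in EW8, with 0, 14 and 6 counts against 0, 0 and 0. Its vehicle mean of 0.138 CPM was at least 1.15-fold above the floor, with an edgeR adjusted p of 0.069 when no filter was applied. In TC71 MMP8 had 2 counts in 1 doxycycline library and 0 in the other 5.

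Whether macrophage or neutrophil transcripts moved with MMP12 and MMP8 was looked at with 11 markers. Of these, 4 were tested and 2, ITGAM and CSF1R, were called higher in each line (11.4% of all genes in EW8 and 12.3% in TC71). CSF1R went from 0.602 to 2.11 CPM in EW8 and from 0.317 to 1.30 in TC71. The summed level of the 11 was 61.1 to 70.4 CPM in EW8 with vehicle and 78.4 to 82.3 with doxycycline, nearly all of it PTPRC. In TC71 the sum was 0.466 to 0.821 CPM with vehicle and 1.93 to 2.53 with doxycycline. Among the neutrophil markers, none of them tested, CEACAM8 and S100A8 had 0 counts in every library, and ELANE and S100A9 were at or below the floor in every group. MPO had 2 to 18 counts in EW8 with vehicle (0.182 ± 0.185 CPM) and 0 to 8 with doxycycline (0.0477 ± 0.0827 CPM), which overlapped, and 0 in TC71, and its part in the MMP8 counts was not tested. The part of ITGAM and CSF1R in the MMP12 result was not tested. In bulk RNA, fewer expressing cells and less RNA per cell cannot be told apart.

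With doxycycline the cluster genes were also far higher in TC71 than in EW8. All 5 members tested were called higher in TC71 than in EW8, where 12.6% of all genes were called higher and 18.4% lower. In order along the chromosome, MMP10 was 26.0-fold higher (log2 4.70, SE 0.10), MMP1 15.6-fold (3.96, SE 0.09), MMP3 16.5-fold (4.05, SE 0.20) and MMP12 6.38-fold (2.67, SE 0.21), with edgeR adjusted p between 2.1e-16 and 5.2e-08. MMP13 was 4.37-fold higher (2.13, SE 0.80, edgeR adjusted p = 0.028), and this call was lost when any 1 of EW8 doxycycline replicates 1, 2 and 3 or TC71 doxycycline replicates 1 and 2 was left out, with edgeR adjusted p between 0.059 and 0.12. JUN and FOS were 1.59-fold and 1.47-fold higher in TC71 in the same comparison. Their part in the differences of the cluster genes was not tested.

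With vehicle, 3 members were called between the lines, MMP10 higher in TC71 and MMP1 and MMP13 lower, where 11.6% of all genes were called higher and 18.9% lower. The call for MMP10 rests on the 6 counts of TC71 vehicle replicate 2, and no fold is given. MMP13 was at least 1.57-fold lower in TC71, and its call was lost without EW8 vehicle replicate 1 or 3 or TC71 vehicle replicate 2. The count of 3 fell to 1 when any of these 3 libraries was left out.

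**Figure D3:**
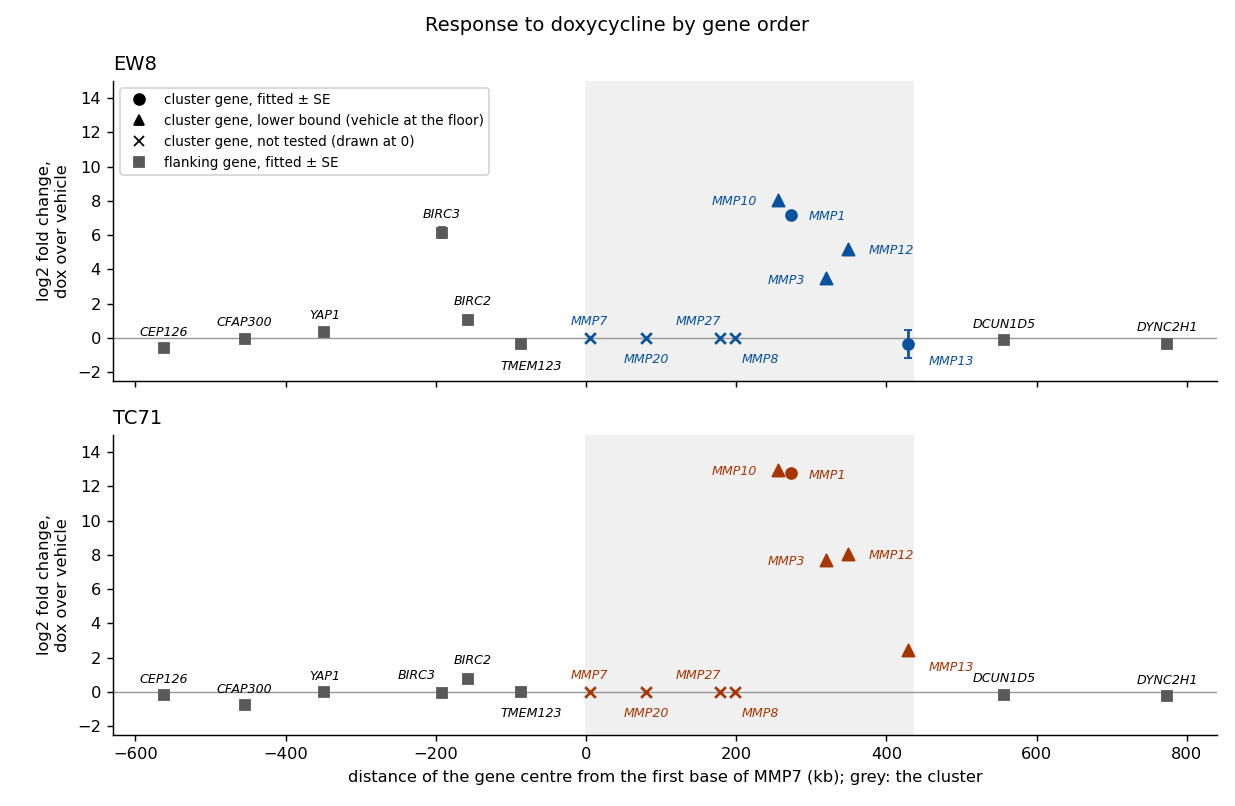
Log2 fold change with doxycycline over vehicle in EW8 (top) and TC71 (bottom) against the distance of each gene's centre from the first base of MMP7 in kb; circles are cluster genes fitted with their SE, triangles lower bounds, crosses cluster genes not tested and squares flanking protein-coding genes. The high values in TC71 fall within the block from MMP10 to MMP12, and in EW8 BIRC3, outside the cluster, is high too.

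The genes on either side of the cluster were then read in the same way. Within 1000 kb of its ends and between its members the table holds 42 other genes, of which 9 are protein-coding and 8 of those were tested. The 7 genes that lie between members, WTAPP1 left out, had at most 2 counts in any library. TMEM123, the nearest coding gene before MMP7, had a log2 fold change of -0.38 in EW8 and -0.01 in TC71, and DCUN1D5, the nearest after MMP13, of -0.15 in both lines. In EW8, 2 of the 8 were called higher and 0 lower, and in TC71 0 were called in either direction. Over all genes tested, 11.4% were called higher and 3.38% lower in EW8, and 12.3% and 3.67% in TC71. At the adjusted p alone, 3 of the 8 were higher and 3 lower in EW8 (21.9% and 22% of all genes) and 1 higher and 2 lower in TC71 (25.1% and 20.4%).

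BIRC3, an inhibitor of apoptosis and a known target of NF-kappaB, lies before MMP7 at 102317450 to 102339403 on chromosome 11. In EW8 its level climbed from 0.206 ± 0.131 to 14.7 ± 0.829 CPM (SD, n = 3; log2 6.14, SE 0.31, edgeR adjusted p = 1.1e-11). In TC71 it stood at 1.36 CPM with vehicle and 1.31 with doxycycline (log2 -0.06, edgeR adjusted p = 0.90), so that its response differed between the lines by -6.20 (SE 0.41, edgeR adjusted p = 4.1e-09). This is the opposite order of the lines from that of MMP1. BIRC2, its neighbour and paralog, rose in both lines. The log2 rise was 1.06 in EW8 (edgeR adjusted p = 4.5e-10) and 0.77 in TC71 (edgeR adjusted p = 2.4e-08), the latter short of the limit on size. Over the alternatives the EW8 value was 0.997 at its lowest, also short of that limit.

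Per length of transcript, the 5 detected members fell into 3 tiers, which kept their places in both lines. Levels were taken as CPM per kilobase of exonic bases shared with no other gene. In EW8 with doxycycline MMP1 had 33.3 ± 2.02 and MMP10 18.9 ± 1.13, MMP12 2.40 ± 0.80 and MMP3 0.688 ± 0.0815, and MMP13 0.0485 ± 0.0206 (SD, n = 3). In TC71 with doxycycline MMP1 had 517.9 ± 19.3 and MMP10 490.7 ± 11.6, MMP12 15.4 ± 0.483 and MMP3 11.4 ± 1.88, and MMP13 0.213 ± 0.102. The libraries of neighbouring genes in this order did not overlap in EW8. In TC71 those of MMP1 (497.1 to 535.1) and MMP10 (477.8 to 500.3) overlapped, although MMP1 was the higher in each library. Over all exonic bases, those shared with WTAPP1 included, the order of the pair in TC71 turned, with a mean of 478.5 ± 17.8 for MMP1 and 490.7 ± 11.6 for MMP10 and MMP1 the lower in replicates 2 and 3. Reads that touched a shared base were dropped, so this longer divisor lowers MMP1 and leaves MMP10 unchanged. The unshared length may leave MMP1 low too, since 7.61% of its bases are shared but 15.3% of its read windows touch one. Among the 21013 genes tested, ranked by level per length over all exonic bases in the TC71 doxycycline group, MMP10 was at place 50 and MMP1 at place 52, and in EW8 they were at places 2728 and 1637.

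Together MMP1 and MMP10 made up nearly all of the cluster's output, but in different proportions in EW8 and TC71. MMP1 gave 60.2% ± 0.868 of the summed level per length in EW8 and 49.6% to 50.7% in the 3 TC71 libraries, and MMP10 gave 34.2% ± 0.517 and 47.4% ± 0.517 (SD, n = 3). MMP12 gave 4.29% ± 1.19 in EW8 and 1.49% ± 0.0503 in TC71. MMP3 gave 1.25% ± 0.207 and 1.10% ± 0.160.

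**Figure D4:**
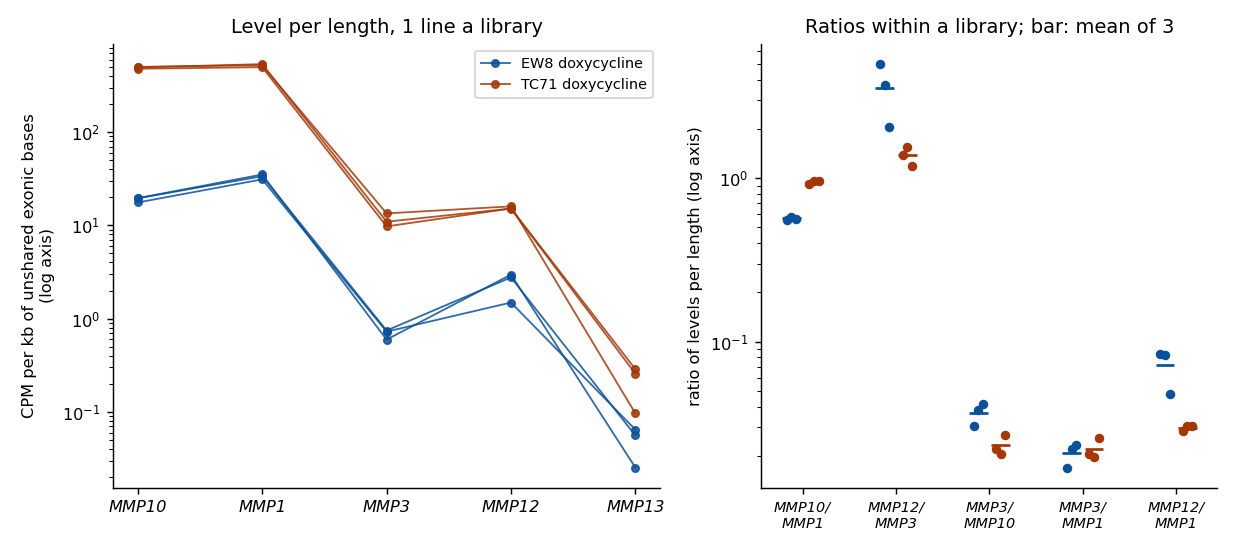
Left, level per length (CPM per kb of unshared exonic bases, log axis) of the 5 detected members in the 3 doxycycline libraries of each line, 1 line a library; right, 5 ratios of these levels within each library (log axis), with bars at the means of 3. The ratio of MMP10 to MMP1 lies between 0.557 and 0.581 in EW8 and between 0.923 and 0.961 in TC71.

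The proportions were also compared as ratios within a library, which do not depend on its overall level. MMP10 stood to MMP1 as 0.557, 0.581 and 0.565 to 1 in the EW8 doxycycline libraries and as 0.923, 0.961 and 0.959 to 1 in those of TC71, with no overlap. The log2 difference was 0.74 (exact permutation test, two-sided, p = 0.1, adjusted p = 0.125 over the 5 ratios compared), and 0.1 is the smallest p that 3 libraries against 3 can give. The ratios of MMP12 to MMP1 (log2 difference -1.22), MMP12 to MMP3 (-1.30) and MMP3 to MMP10 (-0.66) also did not overlap between the lines and had the same p. The ratio of MMP3 to MMP1 was 0.0208 ± 0.00339 in EW8 and 0.0219 ± 0.00333 in TC71 (SD, n = 3), and these overlapped (log2 difference 0.08, exact permutation p = 0.7). In EW8 doxycycline replicate 3, in which MMP12 was low, its ratio to MMP1 was 0.0478, against 0.0844 and 0.0822 in replicates 1 and 2.

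The genes of the whole table whose pattern over the 12 libraries was nearest to that of each member were found from log2 CPM centred on its mean, by the root-mean-square difference. For MMP1 these included FCRLA (0.972, r = 0.99) and TIE1 (0.975). For MMP10 they were TGFBI (1.27, r = 0.98) and S100A16 (1.29), with MMP1 the third (1.49). For MMP3 they were MYH15 (0.572, r = 0.99), MMP12 (0.719) and IL11 (0.726), and for MMP12 they were FCRLA (0.601, r = 1.00), the gene ENSG00000231811 (0.615) and SIGLEC15 (0.713). MMP13 was nearest to TRPM2 (0.582, r = 0.91), MATN2 (0.614) and RASSF2 (0.645). The 12 libraries fall into 4 groups, so these values describe a shared group pattern and carry no p.

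Some of the MMP genes elsewhere in the genome rose as well. Of 14 listed, 12 were tested, with 5 called higher in EW8, 6 in TC71 and 3 in both, and 0 called lower. Over all genes tested, 11.4% were called higher and 3.38% lower in EW8, and 12.3% and 3.67% in TC71. The median log2 fold change of the 12 was 0.80 in EW8 and 1.06 in TC71, against -0.03 and 0 over all genes. MMP9, gelatinase B, rose from 1.60 ± 0.262 to 36.2 ± 1.15 CPM in EW8 (log2 4.49, edgeR adjusted p = 8.5e-12) and from 0.261 ± 0.215 to 7.90 ± 0.326 in TC71 (log2 4.91, edgeR adjusted p = 5.4e-11). MMP19 rose too, with a log2 fold change of 5.04 in EW8 and by at least 29.9-fold in TC71. The lowest by mean change were MMP17, a GPI-anchored MMP, with log2 fold changes of -0.72 and 0.33, and MMP23B, with -0.74 in EW8, neither of which was called. MMP2, gelatinase A, which is named here after its values were seen, was the most abundant of them in EW8 with doxycycline, at 227.8 ± 5.06 CPM, and rose in both lines (log2 1.32 and 4.07).

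**Figure D5:**
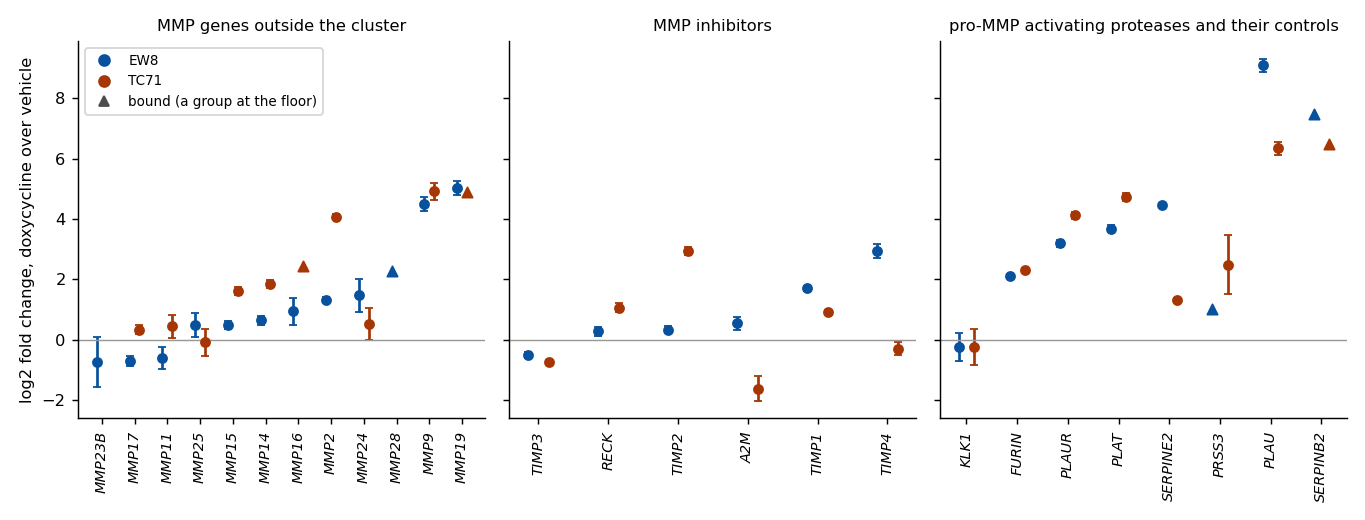
Log2 fold change with doxycycline over vehicle, with its SE, for tested MMP genes outside the cluster, MMP inhibitors, and proteases that activate pro-MMPs with their controls, in EW8 (blue) and TC71 (brown); triangles are bounds where a group was at the floor, and no point is drawn where such a bound is under 1-fold. All but KLK1 among the 8 genes drawn in the right panel are higher in both lines, FURIN for example at 2.11 and 2.32, while among the 6 inhibitors 1 is below 0 in EW8 and 3 are in TC71.

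Of the proteases that activate pro-MMPs, with their receptors and inhibitors, most of those tested rose in both lines. Of 12 listed, 9 were tested. In EW8 8 were called higher and in TC71 the same 8, where 11.4% and 12.3% of all genes were, and 0 were called lower. The median log2 fold change was 4.47 in EW8 (3.68 if bounds stand in for genes with vehicle at the floor) and 4.12 in TC71. PLAU, urokinase, which converts plasminogen to plasmin, is among these 8, at 117.0 ± 9.58 CPM in EW8 and 25.0 ± 0.543 in TC71 with doxycycline. PLG, the plasminogen gene, was not tested and was at or below the floor in every group, with at most 4 counts in a library. CTSG and ELANE were not tested either and were at or below the floor with doxycycline in both lines. SERPINB2, an inhibitor of urokinase, reached 21.8 ± 2.62 CPM in EW8, at least 176-fold above the floor, and 9.63 ± 0.858 CPM in TC71, at least 88.8-fold above it. FURIN, the proprotein convertase, rose by 2.11 and 2.32 on the log2 scale. KLK1 did not pass the test in either line (log2 -0.24 and -0.23). Among the 8, SERPINB2 and SERPINE2 inhibit proteolysis rather than carry it out.

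At the limits used, no inhibitor of MMPs was called in the same direction in both lines. Of 6, all tested, 2 were called higher in EW8 (TIMP1 and TIMP4), where 11.4% of all genes were. In TC71 2 were called higher (TIMP2 and RECK) and 1, A2M, lower, where 12.3% and 3.67% of all genes were. Among the 6 inhibitors 0 were called higher in both. The median log2 fold change was 0.44 in EW8, with 5 of the 6 above 0, and 0.31 in TC71. TIMP1, which inhibits most MMPs, rose in EW8 from 570.5 ± 7.94 to 1855 ± 26.2 CPM (log2 1.70). In TC71 it also rose, by 0.91 on the log2 scale (edgeR adjusted p = 6.1e-09), short of the limit on size. TIMP4 rose in EW8 from 0.514 ± 0.105 to 3.92 ± 0.276 CPM (log2 2.93, edgeR adjusted p = 1.4e-08) and had a log2 fold change of -0.30 in TC71. TIMP2 rose in TC71 from 15.5 ± 3.90 to 118.8 ± 3.38 CPM (log2 2.94, edgeR adjusted p = 7.1e-13) and had a log2 fold change of 0.33 in EW8. TIMP3, which binds to the matrix, was at -0.51 and -0.75, short of the limit on size.

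Among 17 matrix substrates of the members, 15 were tested. In EW8 5 were called higher and 0 lower (11.4% and 3.38% of all genes). In TC71 10 were called higher and 3 lower (12.3% and 3.67% of all genes). Among those 10, COL4A1 had no TC71 library above the floor. The median log2 fold change was 0.17 in EW8 and 3.74 in TC71 (1.21 if bounds or 0 stand in for genes at the floor). TNC, tenascin C, rose by 6.42 and 6.96 on the log2 scale, from 20.3 ± 2.23 to 1740 ± 120 CPM in EW8 and from 13.8 ± 3.35 to 1724 ± 72.1 in TC71. At the other end, COL2A1, a collagen of cartilage, fell in TC71 by 1.94 on the log2 scale (log2 -1.18 in EW8, not called), and DCN, decorin, fell in TC71 by 1.73 (log2 -0.93 in EW8, not called).

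All of 18 transcription factors that act on MMP promoters were tested, JUN and FOS among them. In EW8 12 were called higher and 1 lower (11.4% and 3.38% of all genes). In TC71 8 were called higher and 0 lower (12.3% and 3.67% of all genes). The median log2 fold change was 1.83 in EW8 (1.48 if bounds stand in for genes at the floor) and 0.54 in TC71. ETS1 was at the floor in both vehicle groups and reached 20.4 ± 1.48 CPM in EW8 and 4.40 ± 0.479 in TC71, at least 165-fold and at least 40.6-fold above the floor. FOSL1, another Fos family member, rose by 6.86 (EW8) and 5.54 (TC71) on the log2 scale. With doxycycline ETS1 was lower in TC71 than in EW8 (log2 difference -2.21, edgeR adjusted p = 2.1e-08), the opposite order from that of the cluster genes, and FOSL1 differed by -0.26 (edgeR adjusted p = 0.035), short of the limit on size. ETV1 fell in EW8 by 1.02, and ETV5 was called in neither line (log2 -0.13 and -0.86).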

How the data were processed

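RNA was sequenced from 12 libraries of 2 Ewing sarcoma cell lines (TruSeq Stranded mRNA, 100-base pairs). Per the file header, the deposited values are raw counts per gene from featureCounts 2.0.1, over exons of GENCODE v29 on GRCh38, made by the authors with mates counted singly, strand ignored, multi-mapped reads left out and reads on more than 1 gene dropped. STAR and edgeR are among the tools in the submitters' processing notes, and the study's methods use DESeq2.

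Here the counts were tested in edgeR 4.0.16 (R 4.3.3): filterByExpr, TMM factors, 1 quasi-likelihood fit of all 12 libraries with 4 group levels, and Benjamini-Hochberg adjustment over 21013 genes. A call needed an adjusted p below 0.05 and an absolute log2 fold change over 1. The script was tested on simulated data. Symbols matched 99.2% of gene identifiers. The length column was used for no test. Where all libraries of a group had 6 counts or fewer, a fold is the other group's mean CPM over the CPM of 6 counts per library in that group. Exact permutation tests used SciPy, and promoters came from RefSeq.

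The members were listed by symbol with no threshold on a value, but they and the lists were chosen with earlier results of these data known. The genes named are all members, WTAPP1, JUN and FOS, flanking coding genes called or nearest to the cluster, the 2 highest and 2 lowest tested genes of each list by mean change, and the 3 genes nearest in pattern to each tested member. Some genes that this rule names are not reported here. Genes named beside these were chosen after their values were seen: MMP2, PLAU, PLG, CTSG, SERPINE2, TIMP1, RECK, COL4A1, NKX2-2, the macrophage, neutrophil, bone and ameloblast markers named, and the members of counts of 5 or fewer. The other lists examined were markers of keratinocytes (2 of 5 tested, 0 higher and 1 lower in each line) and ameloblasts (1 of 3 tested, AMBN, lower in both lines, with AMELX at 0 throughout). Of the 11 Ewing sarcoma markers, 4 were called lower in EW8 and 2 in TC71, where 3.38% and 3.67% of all genes were. Alternatives covered scaling, filters, DESeq2, the samples in the fit, a replicate block, halved counts, leaving out each library, the fold limit, exon overlap and the flanking window.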

Additional observations from a re-analysis of the deposited data

Results flagged for a closer look

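The response to doxycycline differed between the lines, by the test of the difference itself, for 8 of the cluster members, flanking coding genes and induced genes, given here as the log2 response in TC71 minus that in EW8 with the edgeR adjusted p. The genes of these kinds that were tested were 5 cluster members, 8 flanking coding genes, JUN and FOS. The 8 were counted at the adjusted p alone, and the share of all genes at that limit was not computed. With the limit on size, MMP1, MMP13 and FOS were called larger in TC71 and BIRC3 smaller. Over all genes tested, 4.18% were called larger and 2.87% smaller. Among cluster genes the difference was 5.57 for MMP1 (9.3e-09) and 4.82 for MMP13 (0.012). The TC71 vehicle libraries were near the floor for MMP1 and at it for MMP13. Among flanking genes it was -6.20 for BIRC3 (4.1e-09), 0.37 for TMEM123 (0.0096), -0.36 for YAP1 (0.019) and -0.28 for BIRC2 (0.048), the last 3 short of the limit on size. For the induced genes it was 0.73 for JUN (0.0022) and 2.21 for FOS (6.4e-12). Of the 76 other genes of the lists that were tested, 37 had an adjusted p below 0.05 for this difference, a share not computed over all genes. Of the 76, 15 were called with the larger and 9 with the smaller value in TC71, where 4.18% and 2.87% of all genes were called. Among list genes named in the report the difference was 2.75 for MMP2 (6.5e-12), 2.76 for MMP19 (0.024, with TC71 vehicle at the floor) and 1.05 for MMP17 (0.0026). Among MMP inhibitors it was 2.60 for TIMP2 (2.6e-09), 0.79 for RECK (0.014), -0.79 for TIMP1 (1.7e-05), -2.17 for A2M (0.0029) and -3.23 for TIMP4 (8.4e-07). It was -2.75 for PLAU (0.00021) and -3.14 for SERPINE2 (3.5e-14), 0.54 for TNC (0.029), -1.31 for FOSL1 (0.0003), 0.52 for ETV1 (0.014) and 0.56 for NKX2-2 (0.04). Groups of 3 libraries were not examined for single outlying values.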

How the results depend on the processing

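Over 24 settings other than those of the report, 568 of 585 values for single genes kept their direction and their side of the threshold, 13 lost the call and 4 turned sign, and 213 of 228 counts of calls stayed within 1.5 times. The 4 members called in EW8 were 4 under every setting that tested them, and those called in TC71 numbered 4 or 5. With at least 10 counts in every library no member was tested, so that setting gives no count. Members called for the difference of the responses numbered 2, and 1 with halved counts; leaving out a library gave 1 to 2. Members called between the lines with vehicle numbered 3, 0 when only the groups compared were fitted (1 member tested) and 1 with halved counts; leaving out a library gave 1 to 3. MMP1 with vehicle was -1.57 (edgeR adjusted p = 0.065) when only those groups were fitted. Flanking genes called in EW8 numbered 2, against 1 with library size alone, 1 with at least 10 counts in every library and 6 with no fold limit; in TC71 they numbered 0, against 3 with no fold limit. Of 60 list genes tested, 33 were called in EW8 and 38 in TC71, in either direction. Over all genes tested, 11.4% were called higher and 3.38% lower in EW8, and 12.3% and 3.67% in TC71. With at least 10 counts in every library, 37 list genes were tested, and 19 and 22 of them were called. That setting removes genes silent with vehicle. Leaving out a library put the log2 fold change of MMP13 in EW8 between -0.78 and 0.32 (0.03 without doxycycline replicate 1) and that of BIRC3 in TC71 between -0.31 and 0.13 (0.01 without vehicle replicate 2), with no call. Over all exonic bases MMP1 had 30.7 CPM per kilobase in EW8 and 478.5 in TC71 with doxycycline. With any base at N, a choice made after the sequences were seen, 3 of 5 promoters held the heptamer against 1.

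Replicate numbers are shared between groups, but same-numbered libraries did not deviate together (correlations of -0.028 to 0.0098), so the numbers do not pair them. With the replicate block 4 members were called in EW8, 5 in TC71, 2 for the difference of the responses, 1 between the lines with vehicle and 4 with doxycycline (MMP13 lost, edgeR adjusted p = 0.12).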
